A study of Sus scrofa with 6 samples.

Results

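The genes described here are ARC, EGR1, EGR2, EGR3, EGR4, NR4A1, NR4A2, NR4A3 and NPAS4, which neurons transcribe within minutes of synaptic activity. They were chosen by name, with earlier results of these data known. All 9 were found among the 28965 genes of the files and passed the filter on low counts. RNA was sequenced from the cortex of 6 male pigs aged 140 days, with groups set by genotype. In 3 pigs the UBE3A gene inherited from the mother was deleted, and 3 pigs were wildtype. No drug, stimulus or other allele is named for either group. Each animal gave 1 library, and the sources used here do not say which part of UBE3A was removed or which region of cortex was taken. UBE3A encodes a ubiquitin ligase that neurons make mainly from the maternal copy, and its loss there causes Angelman syndrome in people.

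ARC is a cytoskeleton-associated protein that promotes internalisation of AMPA receptors and can form capsid-like particles. The EGR proteins are zinc finger transcription factors that bind GC-rich sites, the NR4A proteins are orphan nuclear receptors, and NPAS4 is a basic helix-loop-helix PAS factor induced by calcium entry into neurons. Their messages are short-lived, so their level in a tissue sample depends on what happened shortly before it was frozen. ARC protein has been proposed as a UBE3A target in mice, a link that later work disputed. Protein was not measured here.

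The libraries held between 19796762 and 28126173 exon reads. Levels are CPM, reads scaled to the size of each library after TMM normalisation, as mean ± SD with n = 3 per group, unless TPM is named. Group differences come from edgeR's quasi-likelihood test, as the log2 of deletion over wildtype, with p-values adjusted over 14458 tested genes. UBE3A itself stood at 11.7, 7.80 and 7.73 CPM in the deletion libraries and at 87.9, 93.7 and 91.5 CPM in the wildtype libraries, so every library matched its label (log2 fold change -3.31, SE 0.17, edgeR adjusted p = 0.000371). Markers of excitatory and inhibitory neurons were read in every library. In whole tissue, fewer cells of a type and less RNA per cell cannot be told apart.

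On average the 9 genes were lower in the deletion cortex, but none passed the adjusted test. All 9 log2 fold changes were below 0, against 49.6% of all tested genes, with a median of -0.43 against 0.0022 over all genes. Because the 9 were chosen with earlier results of these data known, comparisons of them with all genes are a description. ARC, EGR2 and EGR3 were lower in every deletion library than in any wildtype library. Their fitted levels were 64.8%, 50.6% and 61.3% of wildtype. For EGR1 and NR4A1 only the averages were close to wildtype, with fitted levels of 94.2% and 89.8%. Their deletion libraries reached both above and below the wildtype range. The 95% intervals of their log2 fold changes, -0.42 to 0.24 and -0.62 to 0.31, held differences of either sign.

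Of the 9 genes, 0 had an adjusted p under 0.05 in edgeR, where 0.00692% of all genes did (1 gene, UBE3A). At an unadjusted p under 0.05 there were 3, all lower in the deletion cortex, against 3.89% of all genes. Groups that did not overlap, with deletion lower, were found for the same 3 genes, against 7.0% of all genes. DESeq2 called 0 of the 9 at its adjusted threshold, where 0.0443% of genes were called lower, and 6 had an unadjusted p under 0.05, all lower in deletion, against 2.65% of genes. The authors' deposited table lists EGR2, and no other of the 9, with an adjusted p under 0.05, and 0.0824% of its genes are listed as lower at that threshold.

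**Figure D1:**
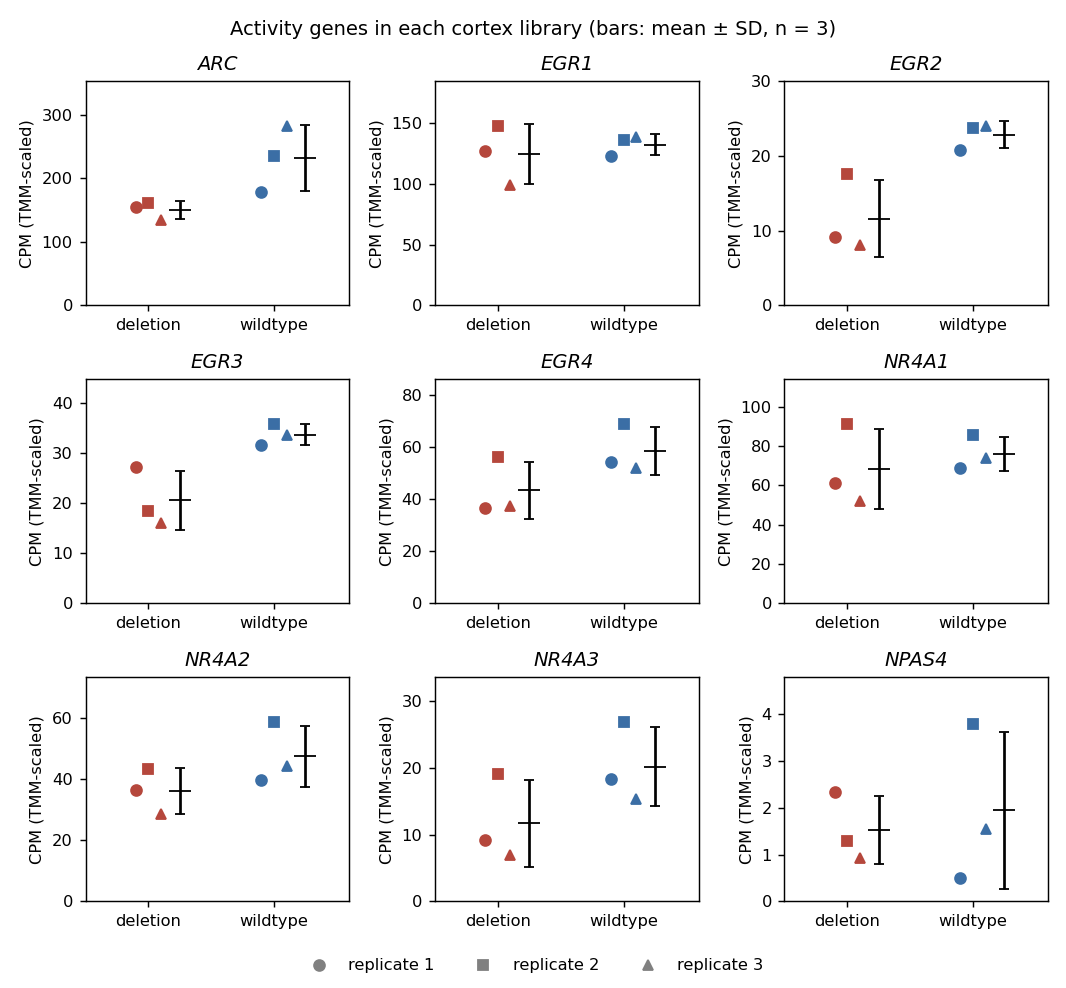
Level of each of the 9 genes in CPM (vertical axis, from 0) in the 3 deletion and 3 wildtype libraries, with marker shape for the replicate and bars for the mean ± SD. The groups stand apart for ARC, EGR2 and EGR3 and overlap for the other 6 genes.

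ARC (ENSSSCG00000038965) had the highest mean TPM of the 9 genes in both groups. Its reads numbered 4357, 3514 and 2879 in deletion replicates 1 to 3 and 4245, 6805 and 5623 in wildtype replicates 1 to 3. Scaled to library size these were 154, 161 and 135 CPM in the deletion libraries, and 179, 234 and 282 CPM in the wildtype libraries. The deletion libraries lay close together, while the wildtype libraries spread over a wider range above them. The means were 150 ± 13.6 CPM in deletion and 232 ± 51.7 CPM in wildtype cortex (SD, n = 3 each). The log2 fold change of -0.63 (SE 0.16, edgeR adjusted p = 0.675) corresponds to 64.8% of the wildtype level, with a 95% interval of 49.9% to 84.1%. The authors' deposited table gives signed fold changes that are not log2 values, where a minus sign means lower in deletion. In it ARC has a fold change of -1.54 and an adjusted p of 0.0749.

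EGR2 (ENSSSCG00000010224), known from mice for its part in hindbrain patterning and in peripheral myelination, showed the largest fitted difference of the 9. It measured 9.16, 17.6 and 8.11 CPM in deletion replicates 1 to 3, against 20.8, 23.7 and 24.0 CPM in wildtype replicates 1 to 3. The 3 wildtype libraries were nearly alike, whereas deletion replicate 2 lay nearer to them than to the other deletion libraries. The reads behind these values ranged from 173 to 383 in deletion and from 479 to 690 in wildtype libraries. Its log2 fold change was -0.98, with an SE of 0.27, a 95% interval of -1.61 to -0.36 and an edgeR adjusted p of 0.675. The authors' deposited table gives EGR2 a signed fold change (not log2) of -1.96 with an adjusted p of 0.0361, and DESeq2 gave an adjusted p of 0.119.

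EGR3 (ENSSSCG00000009630), a relative of EGR1 in activity-dependent transcription, measured 27.2, 18.4 and 16.0 CPM in the deletion libraries and 31.6, 35.8 and 33.5 CPM in the wildtype libraries. Here deletion replicate 1 came nearest to wildtype, and replicates 2 and 3 were low. The means were 20.5 ± 5.89 CPM in deletion and 33.7 ± 2.09 CPM in wildtype cortex (SD, n = 3 each). For EGR3 the log2 fold change came to -0.71, with an SE of 0.19, a 95% interval of -1.14 to -0.27 and an edgeR adjusted p of 0.675. The authors' deposited table lists EGR3 at a signed fold change (not log2) of -1.63 and an adjusted p of 0.144. EGR2 and EGR3 did not follow the same order among the deletion animals. EGR2 reads per EGR3 read were 0.337, 0.955 and 0.506 in deletion replicates 1 to 3, and 0.657, 0.663 and 0.717 in wildtype replicates 1 to 3.

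EGR1 (ENSSSCG00000014336), the family member most used as a marker of neuronal activity, did not separate the groups. It measured 128, 148 and 99.1 CPM in the deletion libraries, against 123, 136 and 139 CPM in the wildtype libraries. The highest and the lowest of the 6 values were both in deletion animals. Its log2 fold change was -0.09 (SE 0.14, 95% interval -0.42 to 0.24, edgeR adjusted p = 0.883), and 0.0545 without deletion replicate 3. EGR4 (ENSSSCG00000036364), another zinc finger factor of the family, measured 36.5, 56.0 and 37.4 CPM in deletion and 54.3, 68.8 and 51.8 CPM in wildtype libraries. For EGR4 only deletion replicate 2 fell among the wildtype values, with the other deletion libraries below them (log2 fold change -0.43, SE 0.19, edgeR adjusted p = 0.675).

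The NR4A receptors bind DNA without a known natural ligand and are induced by cyclic AMP and calcium signals. NR4A1 (ENSSSCG00000031321) measured 61.4, 91.3 and 52.1 CPM in deletion and 68.6, 85.4 and 73.9 CPM in wildtype libraries (log2 fold change -0.16, SE 0.20, 95% interval -0.62 to 0.31, edgeR adjusted p = 0.844). Its highest and lowest values were again both in deletion animals, and the log2 fold change was 0.0042 without deletion replicate 3. NR4A2 (ENSSSCG00000015871), needed for midbrain dopamine neurons, measured 36.2, 43.4 and 28.5 CPM in deletion and 39.5, 58.6 and 44.2 CPM in wildtype libraries (log2 fold change -0.40, SE 0.19, edgeR adjusted p = 0.677). Only deletion replicate 2 overlapped the wildtype range of NR4A2, whose log2 fold change was -0.21 without wildtype replicate 2.

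NR4A3 (ENSSSCG00000005385) had the widest relative spread among deletion animals of the 9 genes, with a coefficient of variation of 55.3% there and 29.6% in wildtype. It measured 9.13, 19.0 and 6.89 CPM in deletion and 18.3, 26.9 and 15.4 CPM in wildtype libraries. Deletion replicate 2 lay above 2 wildtype libraries, and the other deletion libraries lay below all 3. The NR4A3 log2 fold change was -0.81 (SE 0.38, edgeR adjusted p = 0.677), with a 95% interval of -1.69 to 0.08, and it was -1.34 without deletion replicate 2. The annotations differ for NR4A1, which the files list as protein-coding and the RefSeq table of assembly Sscrofa11.1 lists as a pseudogene.

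NPAS4 (ENSSSCG00000012942) was the least read of the 9. Its counts were 66, 28 and 20 in deletion and 12, 110 and 31 in wildtype libraries, or 2.34, 1.28 and 0.937 CPM in deletion and 0.506, 3.79 and 1.56 CPM in wildtype libraries. The lowest and the highest values were both in wildtype animals. Its log2 fold change was -0.38 (SE 0.65, edgeR adjusted p = 0.887) and the 95% interval ran from -1.90 to 1.14, so it held differences of either sign. Without wildtype replicate 2 the log2 fold change was 0.67.

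**Figure D2:**
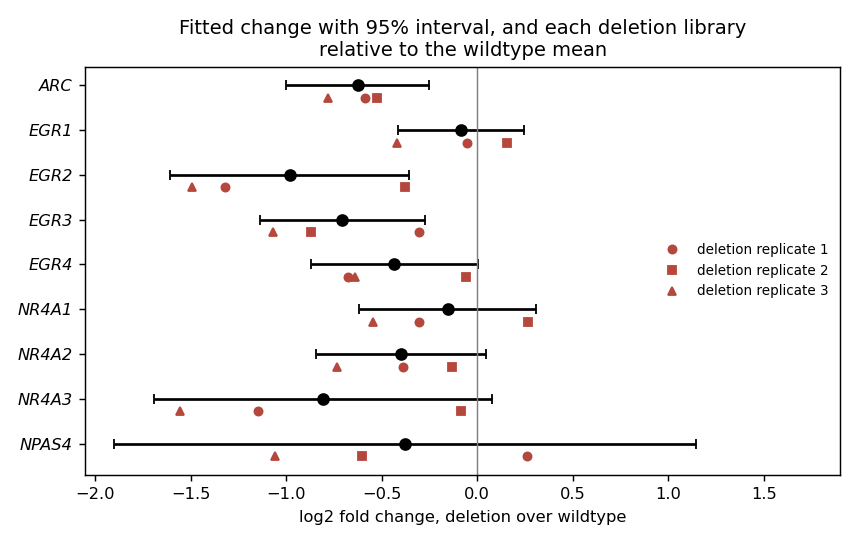
Fitted log2 fold change of deletion over wildtype with its 95% interval (black), and the log2 ratio of each deletion library to the wildtype mean (red, shape for the replicate). The intervals of ARC, EGR2 and EGR3 lie below 0, and deletion replicate 3 is the lowest of the red points for every gene but EGR4.

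Within each group, most of the 9 genes had the same highest library, and most had the same lowest library. Within the deletion group, replicate 3 had the lowest level for 8 of the 9 genes, and replicate 2 had the highest for 7. Among the wildtype animals, replicate 2 was highest for 6 genes and replicate 1 lowest for 7. Relative to the wildtype mean, the median gene stood at 76.4%, 91.4% and 58.2% in deletion replicates 1 to 3, and at 90.7%, 112.4% and 97.2% in wildtype replicates 1 to 3. The 9 genes together took 0.0466%, 0.0543% and 0.0376% of exon reads in the deletion libraries, against 0.0533%, 0.0696% and 0.067% in the wildtype libraries. Deletion replicate 2 thus carried slightly more of them than wildtype replicate 1.

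Profiles over the 6 libraries were compared by the root mean square difference of log2 CPM, each gene centred on its own mean. EGR1 and NR4A1 were the most alike pair (0.13), followed by EGR4 and NR4A2 (0.15). EGR2 and NPAS4 were the least alike (0.85). EGR1 was nearer to NR4A1 and to NR4A2 (0.20) than to any other EGR gene, the closest of which was EGR4 (0.25).

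To set aside library scaling, reads of each gene were divided by the EGR1 reads of the same library, a choice made after the values were seen. In 4 of the 8 ratios every deletion library was below every wildtype library, against 0.892% of all tested genes but EGR1, set over EGR1 in the same way. EGR1 was picked as the divisor with its own values known, so that share is a description as well. The 4 were ARC, EGR2 and EGR3, which were apart in CPM already, and NR4A2. EGR1 was lowest in deletion replicate 3, as were most of the 9 genes. Dividing by it raises the ratio there for genes without that dip, which makes their groups overlap. Without the division, 7.0% of all tested genes were apart with deletion lower. EGR2 reads per EGR1 read were 0.0718, 0.119 and 0.0818 in the deletion libraries, and 0.169, 0.174 and 0.173 in the wildtype libraries. The wildtype ratio was thus nearly constant. For EGR3 the ratios were 0.213, 0.124 and 0.162 in deletion and 0.258, 0.263 and 0.242 in wildtype libraries.

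ARC reads per EGR1 read were 1.21, 1.09 and 1.36 in the deletion libraries, and 1.46, 1.72 and 2.03 in the wildtype libraries. For NR4A2 the ratios were 0.284, 0.293 and 0.288 in deletion and 0.322, 0.431 and 0.319 in wildtype libraries, a narrow gap. NR4A1 per EGR1 did not separate the groups, at 0.482 to 0.617 in deletion and 0.533 to 0.627 in wildtype libraries. The ratios of EGR4, NR4A3 and NPAS4 overlapped too. With 3 animals against 3, an exact two-sided permutation test cannot give a p below 0.1, so the ratios are a description.

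**Figure D3:**
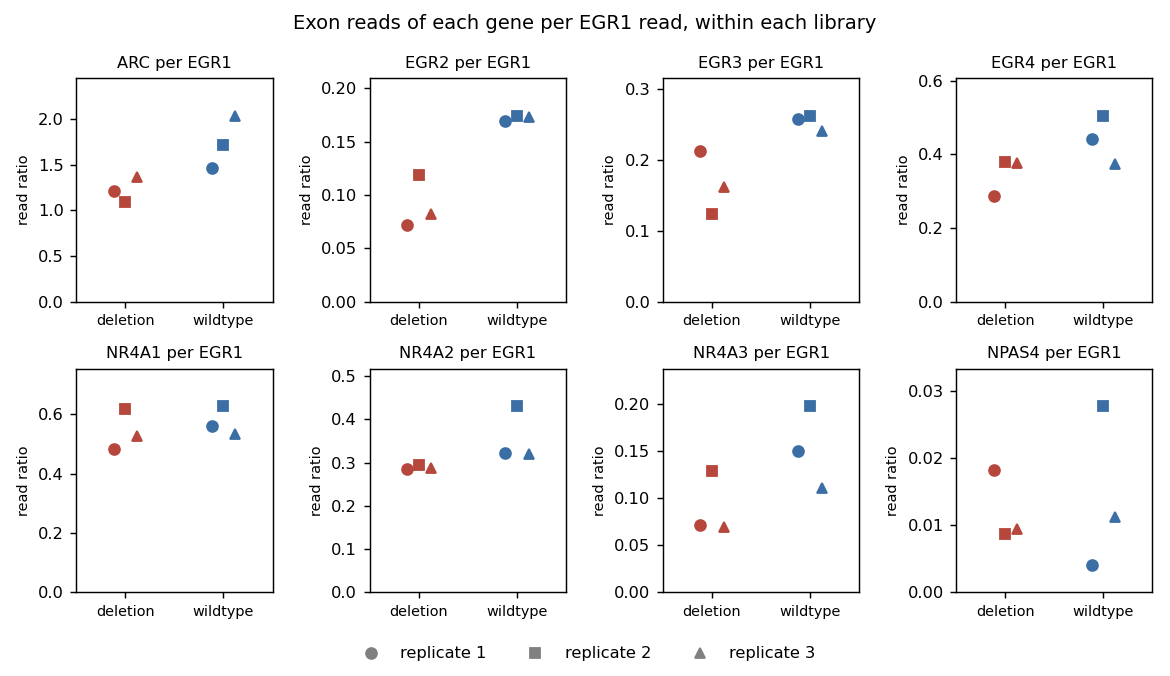
Exon reads of each gene per EGR1 read of the same library (vertical axis, from 0) in deletion and wildtype libraries, with marker shape for the replicate. The EGR2 ratio lies between 0.0718 and 0.119 in deletion libraries and between 0.169 and 0.174 in wildtype libraries, while the NR4A1 ratio overlaps.

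The order of mean levels per gene length was the same in both groups. By the authors' TPM it ran from ARC through EGR1, NR4A1, EGR3, NR4A2, EGR4, EGR2 and NR4A3 to NPAS4. Single libraries could differ, as in deletion replicate 2, where NR4A2 (32.0 TPM) was above EGR3 (27.9 TPM). ARC averaged 124 ± 14.8 TPM in deletion and 209 ± 46.2 TPM in wildtype cortex (SD, n = 3 each), and EGR1 97.8 ± 19.4 TPM in deletion and 114 ± 10.3 TPM in wildtype cortex. The ranges of ARC and EGR1 met in the deletion libraries, at 108 to 137 TPM for ARC and 75.5 to 109.9 TPM for EGR1. In wildtype they did not, at 158 to 247 TPM for ARC and 103 to 124 TPM for EGR1. Among wildtype libraries the neighbours NR4A2 and EGR4 alone overlapped in this order. In the deletion libraries 6 of the 8 neighbouring pairs did, the exceptions being EGR4 with EGR2 and NR4A3 with NPAS4.

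Other activity genes were examined as lists. In the FOS and JUN family with ATF3, 6 of 8 listed genes were tested, and the median was -0.42. JUN and JUND were not among the tested genes. JUNB, the only JUN gene tested, had a log2 fold change of -0.15 (SE 0.23), and its groups overlapped. Of the 6, 5 had log2 fold changes below 0, against 49.6% of all tested genes. None passed edgeR's adjusted test, which 0.00692% of all genes passed. At an unadjusted p under 0.05 there were 3, all lower in deletion, against 3.89% of all genes. FOSB, a dimer partner of JUN proteins, measured 19.6, 12.8 and 11.0 CPM in deletion and 25.4, 27.2 and 25.7 CPM in wildtype libraries (log2 fold change -0.84, SE 0.20, edgeR adjusted p = 0.675). Its order among the deletion animals was that of EGR3. FOSL2 had a log2 fold change of -0.91 (SE 0.31), and its groups overlapped.

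Among 22 tested transcription regulators of the wider early response, 14 were below 0, against 49.6% of all tested genes. The list median was -0.04, and 0 passed edgeR's adjusted test. PER1, a clock gene also induced by activity and glucocorticoids, measured 108, 140 and 114 CPM in deletion and 206, 190 and 181 CPM in wildtype libraries (log2 fold change -0.67, SE 0.12, edgeR adjusted p = 0.675). DESeq2 called PER1 with an adjusted p of 0.00463. IER5L had a log2 fold change of -0.35 (SE 0.16).

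Of 34 activity-induced effector genes, 23 were below 0, against 49.6% of all tested genes. The list median was -0.08, and 0 passed. SPRY4, an inhibitor of receptor tyrosine kinase signalling, measured 19.8, 16.5 and 19.8 CPM in deletion and 22.9, 29.5 and 28.5 CPM in wildtype libraries (log2 fold change -0.52, SE 0.14). DUSP6, an ERK phosphatase, had a log2 fold change of -0.42 (SE 0.17). Named after their values were seen, the neurotrophin BDNF stood at -0.08 (SE 0.26) and the postsynaptic scaffold HOMER1 at -0.16 (SE 0.23). DUSP1, a stress- and glucocorticoid-induced MAP kinase phosphatase and also named after its values were seen, had the opposite sign, at 44.2, 62.1 and 31.7 CPM in deletion and 35.1, 23.5 and 31.5 CPM in wildtype libraries (log2 fold change 0.62, SE 0.25).

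The corepressors and dimer partners of these factors numbered 7, of which 5 were below 0, against 49.6% of all tested genes. The list median was -0.18, and 0 passed. NAB2, a corepressor that binds EGR proteins and is itself induced by them, measured 42.2, 56.9 and 51.0 CPM in deletion and 69.7, 60.9 and 72.0 CPM in wildtype libraries (log2 fold change -0.43, SE 0.13, edgeR adjusted p = 0.675). RXRA, a nuclear receptor of the family that pairs with NR4A1 and NR4A2, measured 25.3, 22.8 and 22.6 CPM in deletion and 28.6, 27.5 and 29.6 CPM in wildtype libraries (log2 fold change -0.28, SE 0.10). Both genes, named for having the lowest p of the list, had groups that did not overlap. With deletion lower this held for 3 of the 7, against 7.0% of all genes.

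Of 34 tested genes for CREB, SRF and MEF2 factors and the kinases and phosphatases upstream of them, 20 were below 0. Of all tested genes 49.6% were. The list median was -0.09, and 0 passed. SRF, which binds the serum response elements of early gene promoters, measured 33.3, 24.2 and 25.7 CPM in deletion and 37.8, 40.8 and 36.9 CPM in wildtype libraries (log2 fold change -0.47, SE 0.14, edgeR adjusted p = 0.675). MEF2D, a calcium-responsive factor, had a log2 fold change of -0.38 (SE 0.099). Among 23 genes for endocytic and postsynaptic proteins that bind ARC or its receptor cargo, 21 were below 0, again against 49.6%. The list median was -0.13, with 0 passing. The endophilins SH3GL1 and SH3GL3 stood at -0.23 (SE 0.094) and 0.29 (SE 0.13).

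**Figure D4:**
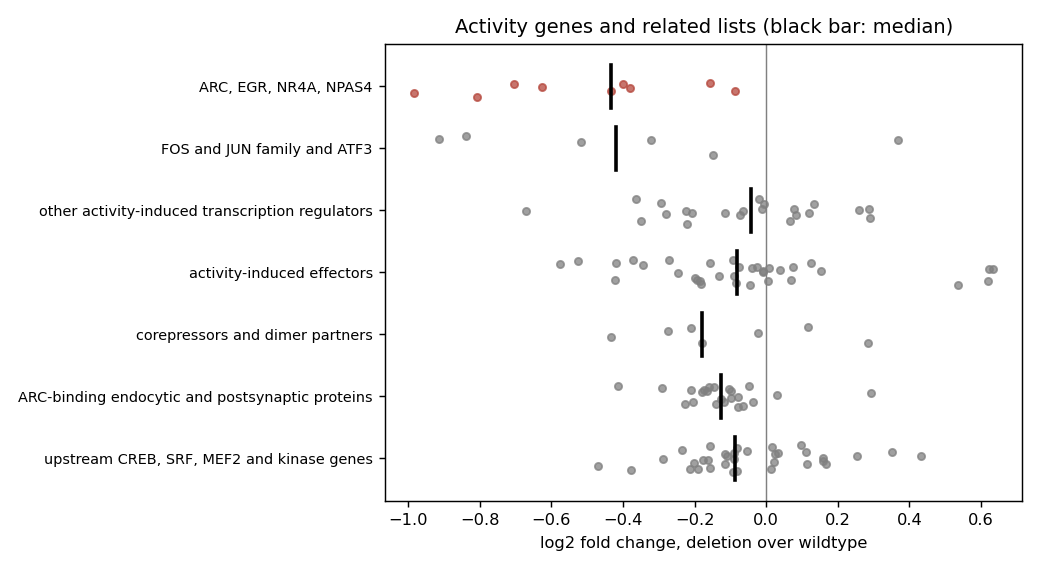
Log2 fold change of deletion over wildtype for each tested gene (points) of the 9 activity genes and of the related lists, with the median as a black bar. The 9 activity genes have a median of -0.43 and the FOS and JUN list one of -0.42, with JUNB as its only JUN gene. The other lists have medians between -0.18 and -0.04.

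Among the other genes with a symbol, those whose profile over the 6 libraries lay nearest to the mean of the 9 were SEL1L2, MASP1, LRP2BP, BAIAP2L1, NBEAL2, KCNK13, FOS and CFAP20DC, with root mean square differences of 0.10 to 0.13 in log2 CPM. FOS measured 36.5, 49.9 and 27.4 CPM in deletion and 51.6, 63.9 and 47.0 CPM in wildtype libraries, while the others averaged below 10 CPM in both groups. For single genes, ARC was nearest to RAP2B and SLC12A1, EGR1 to UBE2C and TGFBR2, EGR2 to RASIP1 and CPNE5, and EGR3 to FOSB (0.07). EGR4 was nearest to HPCA (0.07), which encodes the calcium sensor hippocalcin, and to STOX1. NR4A1 was nearest to VGLL3 and BATF3, NR4A2 to SEL1L2 and MASP1, NR4A3 to RASIP1 and CSF2RB, and NPAS4 to ESM1 and ZFHX3. Several of these were barely read, with group means of 0.37 to 0.97 CPM for UBE2C, STOX1, VGLL3, SEL1L2 and ESM1. Whether such nearness exceeds that between unrelated genes was not tested.

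Markers of several cell types and the mitochondrial share were read beside these genes. Of all tested genes, 49.6% had log2 fold changes below 0. Summed over 7 inhibitory neuron markers, the level ranged from 516 to 671 CPM in deletion and from 590 to 825 CPM in wildtype libraries, with 6 of 7 below 0. Summed over 6 excitatory markers it ranged from 4383 to 5450 CPM in deletion and from 4892 to 6550 CPM in wildtype libraries, with 4 of 6 below 0. Oligodendrocyte markers, of which 0 of 6 were below 0, ranged from 9197 to 22994 CPM in deletion and from 9875 to 20184 CPM in wildtype. Astrocyte markers ranged from 4163 to 4964 CPM in deletion and from 3455 to 4313 CPM in wildtype libraries, with 3 of 7 below 0. Microglia, endothelium, mural, meninges, striatum and hippocampus markers were read too, and their summed levels overlapped. Choroid plexus markers, with 1 of 5 below 0, were low and the only set whose sums did not overlap. They stood at 39.1 to 57.3 CPM in deletion and 28.4 to 38.4 CPM in wildtype libraries. None of the markers passed edgeR's adjusted test.

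Mitochondrial transcripts took 13.7%, 16.9% and 16.1% of reads in the deletion libraries and 13.1%, 11.2% and 13.6% in the wildtype libraries. The groups stood apart in this share, but narrowly, with deletion replicate 1 at 13.67% and wildtype replicate 3 at 13.61%. With this share as a covariate the log2 fold change was -0.66 for ARC, -1.37 for EGR2 and -0.29 for EGR3. The edgeR adjusted p values there were 0.468, 0.364 and 0.681. With the oligodendrocyte marker score as a covariate it was -0.61 for ARC, -0.92 for EGR2 and -0.78 for EGR3. The part of the mitochondrial share in the activity gene values thus remains confounded with genotype. That of neuron and choroid plexus markers was not tested.

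The animal numbers begin with 14 for 1 pig of each group and with 15 for the other 2 of each group, which the labels do not explain. In the 14 pair the log2 difference was -0.21 for ARC, -1.14 for EGR2 and -0.21 for EGR3. Among the 15 animals it was -0.80, -0.97 and -0.99 for the same genes. EGR1 stood at 0.06 in the 14 pair and -0.18 among the 15 animals, while NPAS4 was higher in deletion in the 14 pair and stood at -0.89 among the 15 animals. With 1 animal of each group in the 14 pair, no test within it was possible.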

How the data were processed

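RNA from frozen cortex was made into polyadenylated, stranded libraries and sequenced as read pairs on a NovaSeq instrument, per the labels' protocols. The aligner, counting tool, genome build, annotation and use of strand were among the details not given in the sources used here. Whether a count is a read or a pair is not stated. The authors deposited exon read counts per gene, per the file headers, which entered the tests with blank cells as 0. The authors also deposited TPM, used for levels between genes, and RPKM, which was not tested. The authors' deposited table holds p-values, raw and adjusted, beside a fold change with a sign, from a test that is not named. Its 6 columns of group summaries were not used.

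Genes passing filterByExpr were scaled by TMM and compared by edgeR 4.0.16 (quasi-likelihood F test, robust, no covariate) in R 4.3.3. P-values were adjusted by the Benjamini-Hochberg method over all tested genes, with a threshold of 0.05. Each SE was obtained by dividing the size of the log2 difference by the root of its F statistic. Alternatives used DESeq2 1.42.0, limma-voom 3.58.1, other scalings, filters and covariates, and leaving out each library. Simulated counts with known changes were used to test the edgeR script, and the outcome is not reported here. Profiles, marker scores and the differences by animal number used log2(CPM + 0.5). Replicate numbers follow accession order and pair no animals. Replicates are separate animals by number, and libraries of a group differed by more than counting error (chi-square per degree of freedom 15.1 to 55.0). Members and lists were chosen with earlier results of these data known. Named genes are the 9, UBE3A, the 2 of lowest p per list where none passed, and the nearest profiles (8 for the mean, 2 per gene, of which 1 is not reported here). BDNF, HOMER1 and DUSP1 fall outside this rule and were chosen after their values were seen.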

Additional observations from a re-analysis of the deposited data

How the results depend on the processing

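Over 17 alternatives, 15 planned and 2 added after the data were seen, 0 of the 9 genes passed the adjusted threshold in any. The 9 genes gave 153 such values, of which 148 kept their direction and 5 did not. NPAS4 stood at 0.0763 with limma-voom, at 1.13 with the mitochondrial read share as a covariate, and between -0.89 and 0.67 with each library left out. Without deletion replicate 3, EGR1 stood at 0.0545 and NR4A1 at 0.0042; their lowest values with a library left out were -0.22 and -0.42, both without deletion replicate 2. ARC ranged from -0.78 to -0.46, EGR2 from -1.40 to -0.79 and EGR3 from -0.97 to -0.56 when libraries were left out. The lowest adjusted p values over all alternatives were 0.123 for ARC and 0.119 for EGR2, both with DESeq2, and 0.0804 for EGR3 without deletion replicate 1. Over all genes, 1 was called in the reported fit, 10 by DESeq2, 5 with the mitochondrial share, and 2 without a low-count filter, with the oligodendrocyte score, and among the 4 animals of number 15 alone (an added alternative). Leaving out a library gave 1 to 2, with 2 without deletion replicate 1. DESeq2 called 1 gene of the activity lists, PER1, and the other alternatives 0. The causes were not tested. NPAS4 was the least read of the 9, at 12 to 110 reads per library, with a coefficient of variation of 85.9% in wildtype.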
